A study of Schizosaccharomyces pombe with 4 samples.

Results

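The 10 histone genes of *Schizosaccharomyces pombe*, *hta1*, *hta2*, *htb1*, *hht1*, *hht2*, *hht3*, *hhf1*, *hhf2*, *hhf3* and *pht1*, were taken by name from the 5129 protein-coding genes of the deposited table. All 10 were present and all 10 passed the filter on low values, as did 5073 of the 5129 protein-coding genes. Total RNA came from 2 groups of cells, labelled rrp6 delta strain (*rrp6*Δ) and Wild-type strain (WT), with 2 biological replicates each. No other allele, treatment or growth stage is given in the labels for either strain. The labels and methods call the libraries biological replicates without naming separate cultures, so the tests measure the spread between these libraries. ERCC spike-in RNA was added before rRNA was removed, and stranded paired reads of 50 nt were sequenced. The values are normalized read counts, that is, reads scaled by 1 factor per library. The reads recovered from them numbered 64913330 to 82419985 per library over all transcripts and 37893454 to 52313091 on protein-coding genes. The *rrp6* transcript had 7.38 and 8 normalized reads in *rrp6*Δ libraries 1 and 2, against 2352 and 2842 in WT libraries 1 and 2.

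Histones package DNA: H2A, H2B, H3 and H4 form the core around which DNA is wrapped, and the variant H2A.Z replaces H2A in some nucleosomes, many of them near the starts of genes. Core histone mRNAs are made mainly in S phase, when new DNA needs packaging, and yeast histone mRNAs, unlike those of animals, carry poly(A) tails. Rrp6 is the nuclear 3′-to-5′ exonuclease that works with the exosome, which trims stable RNAs and degrades unstable ones, among them cryptic unstable transcripts (CUTs). In *S. cerevisiae*, loss of Rrp6 has been linked to higher histone mRNA levels.

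*S. pombe* encodes H3 and H4 in 3 divergent pairs and H2A and H2B in a further divergent pair. The pairs are *hhf1* with *hht1* on chromosome I, *hhf2* with *hht2* and *hht3* with *hhf3* on chromosome II, and *hta1* with *htb1* on chromosome III. The second H2A gene, *hta2* (chromosome I), and the H2A.Z gene, *pht1* (chromosome II), stand outside these pairs. The AACCCT box is a promoter element of the histone genes, with which the factors Ams2 and Teb1 have been linked. Both strands of the 300 nt before each start codon were searched for AACCCT, counted as AGGGTT where it lies on the other strand, in the ASM294v3 genome of RefSeq. The box occurred in 509 of 5117 genes searched (9.95%), at least 2 boxes in 37 genes (0.723%), and 2 boxes side by side in 15 genes (0.293%). Of those 15 genes, 8 were histone genes. The other two members were *pht1*, with no box in this window, and *hta1*, whose start codon lies 378 nt from the side-by-side boxes it shares with *htb1*, which are 173 nt from the *htb1* start codon. The stretches below are shown because they hold this shared element. They are the intergenic DNA of 2 pairs, outside the gene bounds of both the table and RefSeq, and 30 nt around the boxes of *hta2*, of the *hhf2* and *hht2* pair (on the *hht2* strand) and of the *hht3* and *hhf3* pair (on the *hhf3* strand). Capitals mark the boxes.
*hhf1* to *hht1*, I:4699600-4699690, + strand: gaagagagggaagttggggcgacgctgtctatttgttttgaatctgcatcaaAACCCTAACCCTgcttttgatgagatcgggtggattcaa
*hta1* to *htb1*, III:1412215-1412358, + strand: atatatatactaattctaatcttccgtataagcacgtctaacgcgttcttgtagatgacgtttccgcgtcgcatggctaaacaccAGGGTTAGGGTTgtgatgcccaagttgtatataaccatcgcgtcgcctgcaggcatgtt
*hta2*, I:4053359-4053388, - strand: catcaaAACCCTAACCCTgtatattgctgt
*hht2*, II:1365054-1365083, + strand: taaatcAGGGTTAGGGTTgtgattgactga
*hhf3*, II:3529621-3529650, + strand: gatcacAACCCTAACCCTttaattaaattg

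The H3 copies encode the same protein, as do the H4 copies, so it matters how far a read can tell them apart. The 3 H3 coding sequences have 411 nt each and differ pairwise at 30 to 48 nt with 0 of 136 residues changed. The 3 H4 coding sequences have 312 nt each and differ at 21 to 27 nt with 0 of 103 residues changed. The first 60 nt of each are shown from the start codon, with capitals where the 3 copies are not all alike.
*hht1*: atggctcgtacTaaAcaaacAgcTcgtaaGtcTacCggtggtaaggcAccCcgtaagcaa
*hht2*: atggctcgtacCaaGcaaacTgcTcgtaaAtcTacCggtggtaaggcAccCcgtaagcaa
*hht3*: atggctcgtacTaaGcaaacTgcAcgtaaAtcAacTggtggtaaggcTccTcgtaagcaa
*hhf1*: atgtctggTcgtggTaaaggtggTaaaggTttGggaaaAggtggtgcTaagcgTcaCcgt
*hhf2*: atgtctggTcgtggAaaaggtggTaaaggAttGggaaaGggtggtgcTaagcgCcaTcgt
*hhf3*: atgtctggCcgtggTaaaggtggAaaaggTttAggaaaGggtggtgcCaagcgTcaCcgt

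Exact sharing of read-length stretches was rare. Of the 263 windows of 50 nt in each H4 coding sequence, 5 in *hhf2* and 5 in *hhf3* (1.90%) occurred elsewhere in the nuclear genome, and 0 windows did in the other 8 coding sequences. The methods, however, allowed up to 3 mismatches per read. Within 3 mismatches, 77.4% of the *hht1* coding windows, 66.6% of *hht3* and 34.8% of *hht2* matched another place in the genome, as did 58.2% of *hhf1*, 54.0% of *hhf3* and 41.8% of *hhf2*. The H2A copies *hta1* and *hta2*, which differ at 54 of 399 aligned nt and 3 of 132 residues, had 15.1% and 15.3% of such windows. The H2B gene *htb1* and the H2A.Z gene *pht1* had 0, and H2A.Z is 52.9% identical in protein sequence to the product of *hta1*. These percentages are for single windows of 50 nt. The reads were paired, and a read may fit its own copy better, so the percentages do not count ambiguous pairs. The study describes one plot of read density in these strains as made from reads with a single mapping position, and whether the deposited counts were made that way is not given in the sources used here. If reads were placed on the wrong copy, shares between copies within a class are less certain than class totals. If reads that fit several copies were dropped or counted more than once, class totals are touched too. Values of *htb1* and *pht1* are the least exposed.

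No histone gene changed 2-fold in *rrp6*Δ. On the deposited spike-in scale the 10 log2 fold changes of *rrp6*Δ over WT lay between 0.03 and 0.30 with a median of 0.18, below the median of 0.26 over all protein-coding genes tested. All 10 of these values became negative with DESeq2 size factors or trimmed-mean (TMM) factors over all transcripts, as did the protein-coding median (−0.40 and −0.28). Such factors take most of the transcripts they use as unchanged, while the deposited scale rests on spike-ins. With DESeq2 size factors the median of all transcripts was 0.0071, against 0.66 on the deposited scale. Which scale is right was not tested. A gene was called if it passed limma at 0.05 after adjustment and differed by over 2-fold, and by this rule 0 of 10 members were called higher and 0 lower. Among the 5073 protein-coding genes tested, 6.39% were called higher and 0.591% lower. Over all transcripts tested, which include the CUTs, 42.6% were called higher and 0.57% lower. The 95% intervals bound the change of each member: the highest upper bound was 0.53, for *pht1*, and the lowest lower bound was −0.16, for *htb1*.

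Per nucleotide of gene, *hta1*, *hht1*, *hht2* and *hht3* were the highest and *pht1* the lowest of the 10 in both strains. The 9 core genes ranked between 179 and 291 of 5129 protein-coding genes in *rrp6*Δ and between 204 and 316 in WT by reads per nt of gene, and *pht1* ranked 1513 in *rrp6*Δ and 1568 in WT. The order differed per nt of coding sequence. There *hhf1* was the highest member in WT (55.2, against 50.4 for *hht2*), and *hhf1* and *hht2* both had 61.8 in *rrp6*Δ. Together the 10 genes took 0.572% and 0.551% of the normalized reads on protein-coding genes in *rrp6*Δ libraries, against 0.493% and 0.492% in WT libraries. In bulk RNA, fewer cells that express a gene and less RNA per cell cannot be told apart.

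**Figure D1:**
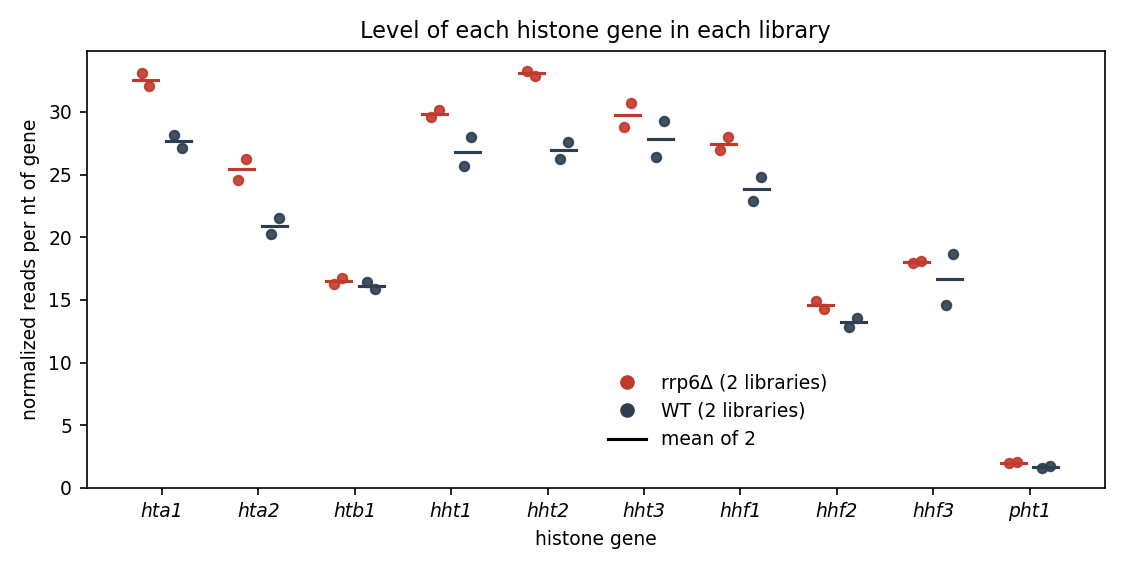
Normalized reads per nt of gene (linear axis from 0) for each of the 10 histone genes, with 1 point per library and a line at the mean of the 2 libraries, *rrp6*Δ left of WT. The levels of *htb1*, *hht3* and *hhf3* overlap between the strains, and those of the other 7 genes are higher in both *rrp6*Δ libraries on the deposited scale, which reverses for all 10 fitted values with DESeq2 size factors.

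The H2A genes were higher in *rrp6*Δ by adjusted p on the deposited scale, by less than 2-fold, and lower with DESeq2 or all-transcript TMM factors. *hta1* (SPCC622.08c, III:1411144-1412214, − strand) had 35437 and 34351 normalized reads in *rrp6*Δ libraries 1 and 2, against 30160 and 29064 in WT libraries 1 and 2. Its groups did not overlap, and the log2 fold change was 0.24 (standard error 0.09, limma adjusted p = 0.0210). *hta2* (SPAC19G12.06c, I:4052446-4053397, − strand) had 23401 and 25008 normalized reads in *rrp6*Δ libraries, against 19315 and 20467 in WT libraries. Again both *rrp6*Δ libraries were above both WT libraries, and the log2 fold change was 0.28 (standard error 0.09, limma adjusted p = 0.0101). The call by adjusted p held for *hta2* in every leave-one-out fit but that without *rrp6*Δ library 2 (adjusted p = 0.0987), and for *hta1* in that without WT library 1 alone. Each such fit leaves a strain with 1 library, which is assumed to vary like those of the other strain.

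H2B, made from the single gene *htb1* (SPCC622.09, III:1412387-1413677, + strand), showed the smallest difference. It had 20996 and 21621 normalized reads in *rrp6*Δ libraries, against 21198 and 20485 in WT libraries. The groups overlapped, and the log2 fold change of 0.03 (95% interval −0.16 to 0.22) had a limma adjusted p of 0.756. *htb1* was also the one member whose interval did not reach the protein-coding median of 0.26. It shares its promoter stretch with *hta1*, printed above, and the difference between the changes of these 2 genes was not tested.

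Of the H3 genes, *hht2* passed by adjusted p, and *hht1* and *hht3* did not. *hht2* (SPBC8D2.04, II:1365041-1365818, + strand) had 25903 and 25554 normalized reads in *rrp6*Δ libraries, against 20415 and 21483 in WT libraries. The 2 *rrp6*Δ values lay above both WT values, and the log2 fold change of 0.30 was the highest of the 10 (standard error 0.09, limma adjusted p = 0.00647). It passed by adjusted p in all 4 leave-one-out fits on the deposited scale, under the assumption stated above, and the other 9 members did not. *hht1* (SPAC1834.04, I:4699691-4700560, + strand) had 25726 and 26199 normalized reads in *rrp6*Δ libraries and 22343 and 24334 in WT libraries. Its groups did not overlap either, but the log2 fold change of 0.16 (95% interval −0.03 to 0.34) did not pass (limma adjusted p = 0.128). *hht3* (SPBC1105.11c, II:3528800-3529657, − strand) had 24708 and 26324 normalized reads in *rrp6*Δ libraries and 22655 and 25144 in WT libraries. Here the strains overlapped, and the log2 fold change was 0.10 (95% interval −0.10 to 0.29, limma adjusted p = 0.358).

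The H4 genes did not pass by adjusted p. *hhf1* (SPAC1834.03c, I:4698773-4699544, − strand) had 20782 and 21609 normalized reads in *rrp6*Δ libraries and 17667 and 19150 in WT libraries. It lay close to the threshold: the log2 fold change was 0.20 (standard error 0.09, limma adjusted p = 0.0538) and no overlap of the strains. *hhf2* (SPBC8D2.03c, II:1364189-1365043, − strand) had 12745 and 12189 normalized reads in *rrp6*Δ libraries and 10996 and 11573 in WT libraries, without overlap, a log2 fold change of 0.14 (95% interval −0.05 to 0.34, limma adjusted p = 0.176). *hhf3* (SPBC1105.12, II:3529657-3530388, + strand) had 13159 and 13245 normalized reads in *rrp6*Δ libraries and 10654 and 13686 in WT libraries. The strains overlapped, and the log2 fold change was 0.13 (95% interval −0.11 to 0.36, limma adjusted p = 0.305). The 2 WT libraries of *hhf3* differed more than those of any other member in proportion. Without WT library 1 its log2 fold change became −0.05, and without WT library 2 it was larger than 0.13.

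The variant gene *pht1* (SPBC11B10.10c, II:1502203-1503468, − strand), which encodes H2A.Z, stood apart in level and not in change. It had 2477 and 2638 normalized reads in *rrp6*Δ libraries, against 2026 and 2157 in WT libraries. The groups did not overlap, and the log2 fold change was 0.29 on the deposited scale (standard error 0.11, limma adjusted p = 0.0300). It still passed without either WT library (limma adjusted p = 0.0491 and 0.00555) and did not without *rrp6*Δ library 1 (0.0988) or 2 (0.241).

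Set against all protein-coding genes, these small differences were ordinary. By adjusted p alone 4 of 10 members were higher and 0 lower on the deposited scale, beside 46.7% of all protein-coding genes higher. In 7 of 10 members both *rrp6*Δ libraries were above both WT libraries, beside 65.3% of all protein-coding genes. The log2 fold change was below the protein-coding median for 7 of 10 members, and for 9 of 10 the 95% interval included that median. Relative to that median the member median was lower by 0.08 (log2 difference −0.08) on the deposited scale, and it stayed there with DESeq2 size factors, with both kinds of TMM factors and with library totals. With quantile normalization, which can change the difference, the member median was 0.22 above the protein-coding median.

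**Figure D2:**
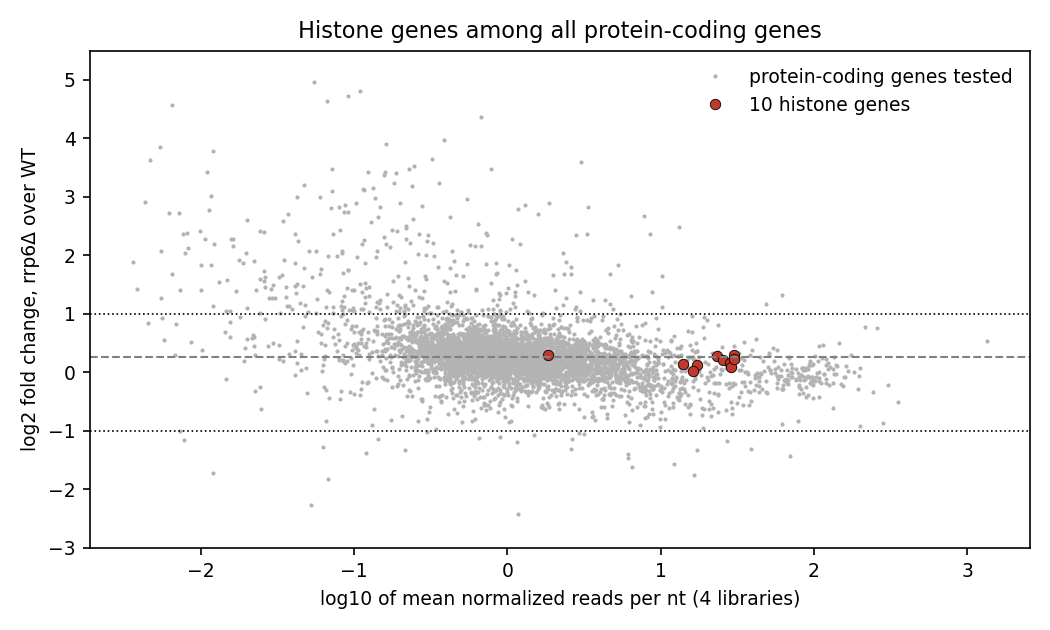
Log2 fold change of *rrp6*Δ over WT on the deposited scale (limma) against the log10 of the mean normalized reads per nt over 4 libraries, for all protein-coding genes tested (grey) and the 10 histone genes (red). The dashed line is the median of 0.26 and the dotted lines are 2-fold. The histone genes lie between 0.03 and 0.30, all below 0 with DESeq2 size factors, and *rrp6* (−8.26) and *alr2* (−3.99) are outside the axis.

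The coding sequence and the rest of the gene were then compared, since the copies are most alike in the coding part. In the fit of coding sequences, the median of the 10 members was 0.16 and 2 passed by adjusted p, *hta2* and *hht2*, beside 30.7% of all coding pieces tested that were higher. In the part outside the coding sequence, which differs between copies, the median was 0.23 and 5 members passed, *hta1*, *hta2*, *hht2*, *hhf1* and *pht1*, beside 49.1% of 2362 genes tested. The median over those 2362 genes was 0.42. Both medians of the members turned negative with DESeq2 size factors or TMM factors computed within each of these fits. Again 0 of 10 members were called at 2-fold in either part.

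**Figure D3:**
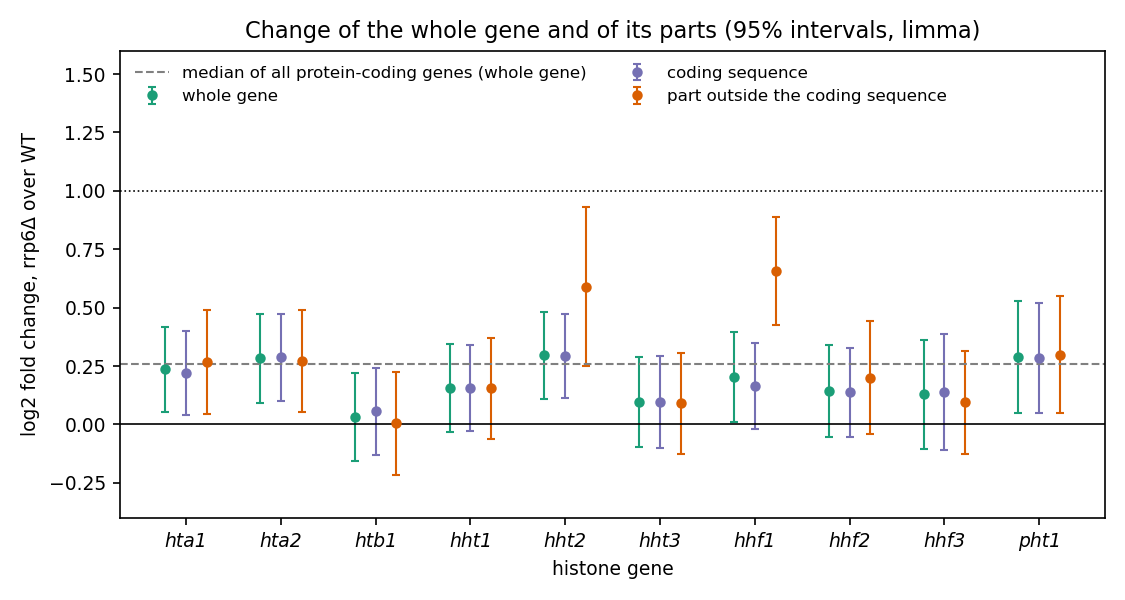
Log2 fold change of *rrp6*Δ over WT on the deposited scale with 95% intervals (limma) for the whole gene, the coding sequence and the part outside it, for each histone gene. The dashed line is the protein-coding median of 0.26 for whole genes and the dotted line is 2-fold. The part outside the coding sequence of *hhf1* (0.66) and *hht2* (0.59) stands above the other 2 values of the same gene, and all whole-gene values fall below 0 with DESeq2 size factors.

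The H4 gene *hhf1* was the member in which the parts came apart. Its part outside the coding sequence had 1617 and 2207 normalized reads in *rrp6*Δ libraries, against 1188 and 1208 in WT libraries, which was a log2 fold change of 0.66 (standard error 0.12, limma adjusted p = 1.99e-07). Its coding sequence had 19165 and 19402 normalized reads in *rrp6*Δ libraries, against 16479 and 17942 in WT libraries, a log2 fold change of 0.17 (95% interval −0.02 to 0.35). The ratio of outside to coding reads does not depend on the scaling of libraries, and it was tested over 2344 genes, a test added after the data were seen. It was higher in *rrp6*Δ for *hhf1* by 0.49 on the log2 scale (standard error 0.11, limma adjusted p = 0.00246), and this was 1 of 10 members, beside 20.8% of all genes tested. Without *rrp6*Δ library 2, where the outside part was highest, the ratio change was 0.28 (adjusted p = 0.0294), and it was 0.44 to 0.71 without each of the other libraries. The convergent neighbour of *hhf1* is *aro1*, an enzyme gene of aromatic amino acid synthesis that ends 166 nt away on the other strand.

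*hht2* had the least signal outside its coding sequence. That part makes up 47.2% of its length, and it held 1.15% and 1.39% of the reads of the gene in *rrp6*Δ libraries and 0.970% and 1.09% in WT libraries. The value outside is the gene value less the coding value. How reads that cross the border were counted is not given. If they count as coding, the share outside is lowered in every member. Its 298 and 354 normalized reads in *rrp6*Δ libraries, against 198 and 235 in WT libraries, gave a log2 fold change of 0.59 (limma adjusted p = 0.00213), but the ratio to its coding sequence did not pass (0.30, limma adjusted p = 0.127). In the other members the share outside the coding sequence ranged between 7.78% (*hhf1*) and 46.0% (*htb1*) in *rrp6*Δ and between 6.31% (*hhf1*) and 46.8% (*htb1*) in WT. The gene bounds used here are those of the table, and for 8 of the 10 members the leader starts further upstream than in RefSeq, by 24 to 110 nt. For *hhf1* and *htb1* it is shorter than in RefSeq, by 55 and 28 nt. The outside part of *hhf1* therefore leaves out 55 nt of its RefSeq leader.

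**Figure D4:**
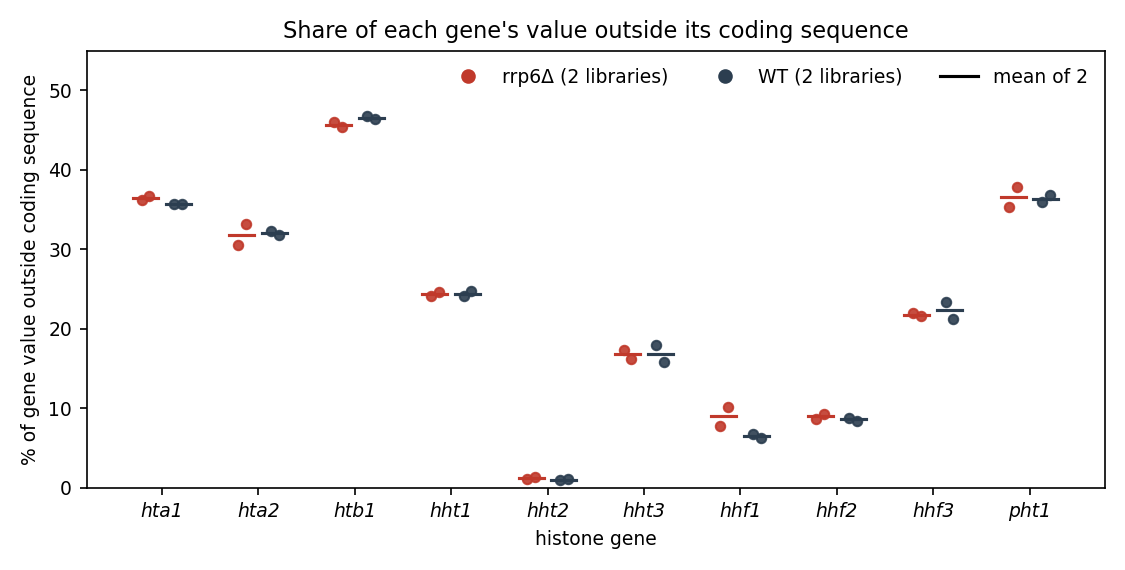
Share of each gene's normalized reads that lies outside its coding sequence, in percent (linear axis from 0), with 1 point per library and a line at the mean of 2, *rrp6*Δ left of WT. The strains are apart at *hhf1*, with 7.78% and 10.2% in *rrp6*Δ against 6.72% and 6.31% in WT, and *hht2* has the lowest share, 0.970% to 1.39%.

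Class totals of reads per nt of coding sequence put the histones side by side. The classes differ in how many windows match another place, so reads that fit several copies may enter the totals unequally. Reads that cross the border of a coding sequence may also be counted in it. H3 summed to 161 ± 2.48 in *rrp6*Δ and 142 ± 8.56 in WT (SD, n = 2 each, as for the next values), and H4 to 131 ± 0.528 in *rrp6*Δ and 119 ± 10.5 in WT. H2A summed to 97.2 ± 0.710 in *rrp6*Δ and 81.8 ± 0.360 in WT, and H2B to 30.4 ± 0.867 in *rrp6*Δ and 29.2 ± 0.561 in WT. H2A.Z was far lower, at 3.86 ± 0.0616 in *rrp6*Δ and 3.17 ± 0.107 in WT. The ratio of H3 to H4 was 1.23 ± 0.0238 in *rrp6*Δ and 1.20 ± 0.0341 in WT, within the spread of the libraries. The ratio of H2A to H2B was 3.20 ± 0.115 in *rrp6*Δ and 2.80 ± 0.0661 in WT, with no overlap of the strains. By library, the H2A to H2B ratio was 3.28 and 3.12 in *rrp6*Δ, against 2.75 and 2.85 in WT. For a single ratio over 4 libraries an exact two-sided permutation test cannot go below p = 0.333, and no test of these ratios is given.

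The shares of the 3 H3 copies did not overlap between the strains, and those of the H4 and H2A copies did. The shares of a class have a fixed sum, so those of the H3 copies are not separate results. No background for such separation was computed, and for any 1 share an exact two-sided permutation test cannot go below p = 0.333. Among the members, *hht1* and *hht3* also had the most coding windows within 3 mismatches of another place (77.4% and 66.6%). Of the H3 total, *hht2* held 39.1% and 37.6% in *rrp6*Δ libraries, against 36.3% and 35.0% in WT libraries. *hht3* held 31.2% and 32.9% in *rrp6*Δ libraries, against 33.3% and 34.9% in WT libraries. *hht1* held 29.8% and 29.5% in *rrp6*Δ libraries, against 30.4% and 30.1% in WT libraries. Of the H4 total, *hhf1* held 47.1% in *rrp6*Δ and 46.6% in WT, and *hhf2* and *hhf3* each held between 25.2% and 27.9% in either strain. *hta1* gave 57.2% of the H2A total in *rrp6*Δ and 58.3% in WT. For H4 and H2A means over 2 libraries are given, with an SD of at most 2.74 percentage points, and the differences in share were not tested.

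Around the histone genes the calls fell mainly on non-coding transcripts. Of 27 non-member transcripts that overlap a member or lie within 500 nt of one, 11 were called higher in *rrp6*Δ and 0 lower, and 16 were not called. Over all 11227 transcripts tested 42.6% were called higher and 0.57% lower, so the share of neighbours was near that background. Called higher were 5 of 5 CUTs (99.9% of all CUTs tested), 3 of 6 Xrn1-sensitive unstable transcripts or XUTs (60.7% of all) and 1 of 3 non-coding transcription units that the table names novelncTU (33.8% of all). So were the 1 tRNA gene (85.4% of all) and 1 of 8 protein-coding genes (6.39% of all), and 0 of 4 annotated ncRNAs (49.5% of all). CUT126 and XUT0093 count the same reads and enter the counts of 27 and 11 as 2. The transcripts rav1-antisense-1 and XUT0387, not called, have equal values in each library and enter the 27 as 2. CUT2361 and XUT1525, both called, overlap. The study chose its CUTs for a rise in these same libraries. The CUT count and the p-values of single CUTs given below follow from that choice and give no further evidence. With DESeq2 size factors 7 of these 11 were still called higher and with both kinds of TMM factors 8, while with quantile normalization 2 were and 6 of the 11 had log2 fold changes below 0. The count of neighbours called lower was 1 with DESeq2 size factors, 7 with quantile normalization and 1 when TMM used all transcripts. At a filter of at least 50 reads, 5 remained in the test and all 5 were called.

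**Figure D5:**
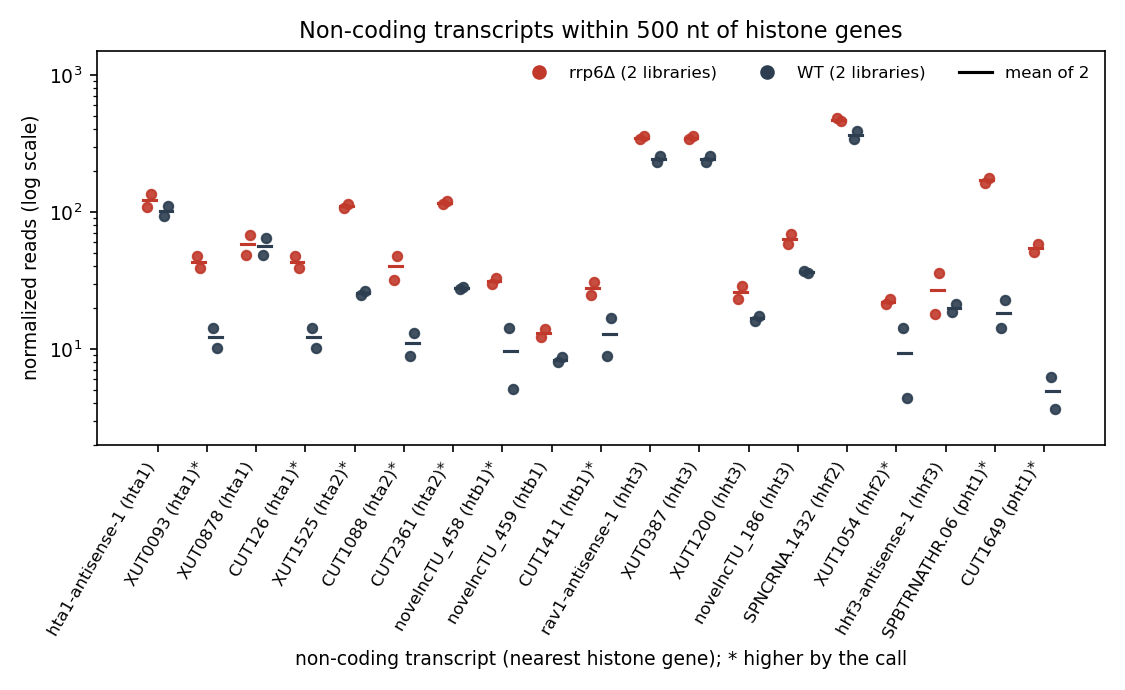
Normalized reads (log axis) of the 19 non-coding transcripts that overlap a histone gene or lie within 500 nt of it, with 1 point per library and a line at the mean of 2, *rrp6*Δ left of WT and the nearest histone gene in brackets. The 10 marked transcripts were called higher in *rrp6*Δ on the deposited scale (2 of them with quantile normalization), and CUT1649 and SPBTRNATHR.06 beside *pht1* rose most.

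The largest rises lay beside *pht1*. CUT1649 starts 144 nt upstream of *pht1* on the opposite strand and had 50.9 and 58 normalized reads in *rrp6*Δ libraries, against 6.19 and 3.64 in WT libraries (log2 fold change 3.32, standard error 0.37, limma adjusted p = 5.44e-07). The threonine tRNA gene SPBTRNATHR.06, 484 nt upstream on the same side, had 162 and 178 normalized reads in *rrp6*Δ libraries, against 14.1 and 22.6 in WT libraries (log2 fold change 3.20). Both stayed higher with every scaling. The *pht1* gene between this region and the convergent *cdc2*, which encodes the cyclin-dependent kinase of the cell cycle and was higher within 2-fold (0.32, limma adjusted p = 0.0130), had the change of 0.29 given above.

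Beside *hta2*, CUT2361 and XUT1525 start 225 and 244 nt upstream on the opposite strand, within the neighbouring gene *rsd1*. CUT2361 had 113 and 120 normalized reads in *rrp6*Δ libraries, against 27.4 and 28.4 in WT libraries (log2 fold change 2.03, standard error 0.24, limma adjusted p = 1.13e-06), and XUT1525, which overlaps it, had a log2 fold change of 2.08. *rsd1*, an RNA-binding protein gene on the same strand as *hta2*, was the 1 protein-coding neighbour called higher, with 4178 and 4506 normalized reads in *rrp6*Δ libraries, against 2019 and 2090 in WT libraries (log2 fold change 1.08). That call was lost with DESeq2 size factors (0.42), with TMM factors over all transcripts (0.54) or protein-coding genes (0.83), and with quantile normalization (0.79). CUT1088, 344 nt downstream of *hta2* on its strand, had 32.0 and 48 normalized reads in *rrp6*Δ libraries, against 8.84 and 13.1 in WT libraries.

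At the *hta1* and *htb1* pair, CUT126 and XUT0093 count the same reads, 185 to 188 nt beyond the end of *hta1* on its strand. They had 47.6 and 39 normalized reads in *rrp6*Δ libraries, against 14.1 and 10.2 in WT libraries (log2 fold change 1.78, limma adjusted p = 0.000129). novelncTU_458, antisense within *htb1*, had 29.5 and 33 normalized reads in *rrp6*Δ libraries, against 14.1 and 5.10 in WT libraries (log2 fold change 1.78, limma adjusted p = 0.00120). CUT1411, 144 nt downstream of *htb1*, rose by a log2 fold change of 1.13 (limma adjusted p = 0.0122), but its call was lost without WT library 1 and without either *rrp6*Δ library. hta1-antisense-1, which covers all of *hta1*, had 108 and 135 normalized reads in *rrp6*Δ libraries and 93.7 and 111 in WT libraries, and was not called (0.25).

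At the H3 and H4 pairs the changes were smaller. XUT1054, 183 nt downstream of *hhf2* on the other strand, had 21.3 and 23 normalized reads in *rrp6*Δ libraries, against 14.1 and 4.37 in WT libraries (log2 fold change 1.39), a call lost without WT library 2 and without either *rrp6*Δ library. Antisense to *hhf3*, hhf3-antisense-1 had 18.0 and 36 normalized reads in *rrp6*Δ libraries and 18.6 and 21.1 in WT libraries and was not called, and novelncTU_186, antisense to *hht3*, missed 2-fold (0.79). Besides *cdc2*, further protein-coding neighbours passed by adjusted p within 2-fold: the transcription factor gene *rsv2*, 371 nt downstream of *hhf3*, was higher (0.79), and *aro1*, beside *hhf1*, was lower (−0.58). The capping enzyme gene *mce1* beside *hta2*, *sec5* beside *htb1*, *sfi1* beside *hht2* and *rav1* beside *hht3* lay between −0.15 and 0.29 and did not pass. Each of the called non-coding transcripts amounted to at most 6.66% of the reads of its neighbouring member in *rrp6*Δ, the tRNA beside *pht1*, and to at most 2.13% without it.

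Genes that act on histones or rise with them in the cell cycle were likewise within 2-fold. *cnp1*, which encodes the centromeric H3 variant, had a log2 fold change of 0.19 (limma adjusted p = 0.206). Of 6 genes linked to histone gene transcription 0 were called, with a median of 0.23 and *ams2* the highest at 0.42 (limma adjusted p = 0.00347, 0.0769 without *rrp6*Δ library 2, and −0.25 with DESeq2 size factors). Of 15 histone chaperone and remodeller genes 0 were called (median 0.09), and 7 passed by adjusted p alone. Of these, 3 were higher on the deposited scale, *scm3* (0.49) and *sim3* (0.41), which act on the centromeric H3 variant, and *pcf2* (0.33), a CAF-1 subunit, with −0.17, −0.26 and −0.33 under DESeq2 size factors. The other 4 were lower, *pcf3* (−0.33) of CAF-1, the remodeller gene *hrp3* (−0.33), the H2A-H2B chaperone gene *nap1* (−0.30) and *spt16* (−0.29) of FACT. Under DESeq2 size factors these 4 stood, in the same order, at −0.99, −0.99, −0.96 and −0.95. Of all 5073 protein-coding genes tested, 2368 were higher and 359 lower by adjusted p alone on the deposited scale. Of the 7 genes, 0 passed in every leave-one-out fit: 1 passed without *rrp6*Δ library 1, 2 without *rrp6*Δ library 2, 6 without WT library 1 and 4 without WT library 2. Of 10 genes of SWR1, the complex that puts H2A.Z into chromatin, 0 were called (median 0.24). These medians stand beside 0.26 over all protein-coding genes.

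Cell cycle genes were compared because histone mRNA peaks in S phase. Of 13 genes of the G1 to S program driven by MBF 0 were called (median 0.08, range −0.19 to 0.34), and their summed level was 35338 and 38628 normalized reads in *rrp6*Δ libraries and 36900 and 38901 in WT libraries, so the strains overlapped. Of 12 mitotic genes 0 were called (median 0.10). The summed level of the 10 histone genes was 205334 and 208738 normalized reads in *rrp6*Δ libraries, against 177429 and 187543 in WT libraries.

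Some genes used as markers of other cell states were higher in *rrp6*Δ. The paper refers to earlier work in which the nuclear exosome degrades meiotic RNAs in mitotic cells. On its own Northern blots of *rrp6*Δ it reports higher *meu19* and *meu31*, and no effect on *mug14*. Levels of these RNAs thus do not by themselves count meiotic cells, and the cause of their rise was not tested. Of 6 meiotic genes 5 were called higher, *mde2* (4.73), *ssm4* (3.23), *spo5* (3.14), *mei4* (2.62) and *rec8* (2.26), and *mei2* (−0.82) was lower within 2-fold. Their summed level was 3808 and 4122 normalized reads in *rrp6*Δ libraries, against 1803 and 1736 in WT libraries. Of 6 markers of the M mating type 2 were called higher, *mfm3* (2.37) and *mfm1* (1.41), with a summed level of 3964 and 4093 in *rrp6*Δ libraries, against 3124 and 3004 in WT libraries, and the count of M markers called was 1 or 0 under most alternatives. Of 3 markers of the P mating type 0 were called, with summed levels of 1085 and 1169 in *rrp6*Δ libraries, against 881 and 890 in WT libraries, and 0 of the 15 markers stood at 0 in any library. Their part in the histone values was not tested.

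Over the 4 libraries the protein-coding genes with the profile nearest to the median of the 10 members, by the distance between centred log2 values, were *mdm28* (0.0093), *cho1* (0.0130) and *rps1601* (0.0204), whose log2 fold changes were 0.18, 0.18 and 0.20.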

How the data were processed

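Stranded total RNA libraries of *rrp6*Δ and WT (2 each, grouped by their labels) were analysed from 1 table. The signal values are normalized read counts and reads per nt that the authors deposited. Per the methods, reads were mapped with TopHat with up to 3 mismatches and densities were normalized on ERCC spike-ins. A general paragraph of the methods names HTSeq and a release of the *S. pombe* assembly for RNA-seq, without saying whether it covers this experiment. Every value was a whole multiple of 1 factor per library (100% within 1e-06), which gave back the reads, 64913330 to 82419985 per library. Columns that sum both libraries of a strain were not used. Of 21852 entries, 10204 pieces of coding sequence were fitted on their own, 28 duplicated pseudogene entries were left out, and 11620 transcripts were used.

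limma 3.58.1 with a trend (R 4.3.3) was fitted to log2(normalized read count + 0.729), so fold changes are on that scale. filterByExpr of edgeR 4.0.16 (minimum count 10) kept 11227 transcripts, with Benjamini-Hochberg adjustment over all of these. Coding pieces (10044), the gene value less its coding value (2362 genes with 1 piece), and, added after the data were seen, the log2 ratio of the last 2 (2344) were fitted apart. Genomic sequence came from RefSeq ASM294v3, which the coordinates of the table fit (99.9% of 5118 coding sequences open with ATG).

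Alternatives were the quasi-likelihood test of edgeR on the recovered reads, DESeq2 1.42.0, other scalings, filters, pseudocounts and thresholds, limma without the trend, a replicate block, and each library left out. Named were the 10 members, transcripts within 500 nt, the called members of each list (at most 4, with exceptions chosen after their values were seen: *ams2*, 7 chaperone and remodeller genes, *mei2*, the last of 5 called meiotic genes, *alr2* and the genes with side-by-side boxes), *rrp6*, and the 3 genes nearest in profile. The members and lists were chosen with earlier results of these data known. The result of 1 gene list is not reported here. Python 3.11.15, pandas 2.3.3, numpy 2.4.6, biopython 1.88 and matplotlib 3.10.9 were used.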

Additional observations from a re-analysis of the deposited data

How the results depend on the processing

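The direction of the histone genes depended on the scaling. DESeq2 and TMM factors take most of the transcripts they use as unchanged, and the deposited scale rests on spike-ins. The log2 fold changes of whole genes with DESeq2 size factors were −0.43 (*hta1*), −0.38 (*hta2*), −0.63 (*htb1*), −0.51 (*hht1*), −0.36 (*hht2*), −0.56 (*hht3*), −0.46 (*hhf1*), −0.52 (*hhf2*), −0.53 (*hhf3*) and −0.37 (*pht1*), all with an adjusted p under 0.05 and all within 2-fold. With TMM factors over all transcripts they were −0.30 (*hta1*), −0.26 (*hta2*), −0.51 (*htb1*), −0.39 (*hht1*), −0.24 (*hht2*), −0.45 (*hht3*), −0.34 (*hhf1*), −0.40 (*hhf2*), −0.41 (*hhf3*) and −0.25 (*pht1*). These falls were shared by most genes. By adjusted p alone 3607 of 5073 protein-coding genes tested were lower with DESeq2 size factors (median −0.40). With TMM factors over all transcripts 3003 were (median −0.28). With TMM factors over protein-coding genes 7 members were negative, at −0.0095 (*hta1*), −0.21 (*htb1*), −0.091 (*hht1*), −0.15 (*hht3*), −0.042 (*hhf1*), −0.10 (*hhf2*) and −0.12 (*hhf3*). Library totals gave −0.035 for *htb1*, quantile normalization −0.031 for *pht1*, and leaving out each library gave −0.052 (without WT library 1) to 0.31 for *hhf3*, 0.020 to 0.17 for *hht3*, 0.093 to 0.22 for *hht1* and 0.0074 to 0.057 for *htb1*. These scalings moved the median of all transcripts by −0.66 (DESeq2), −0.54 (TMM, all), −0.24 (TMM, protein-coding), −0.73 (quantile) and −0.067 (totals).

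The median of the members, 0.18 in whole genes, became −0.48 (DESeq2), −0.36 (TMM, all), −0.067 (TMM, protein-coding) and 0.11 (totals). In coding sequences it became −0.064 (DESeq2) and −0.054 (either TMM), and outside the coding sequence −0.20 (DESeq2), −0.18 (either TMM), 0.037 (totals) and −0.014 (quantile). Leaving out each library gave 0.13 to 0.24 in whole genes, 0.10 to 0.22 in coding sequences and 0.17 to 0.24 outside them. By adjusted p alone 4 (whole gene), 2 (coding) and 5 (outside) members were higher, and the 4 became 0 in limma without the trend, 2 with library totals, and 1 to 5 without each library. At 2-fold 0 members were called under every alternative. In the other lists, 7 genes were called higher and 0 lower, and the lower ones became 3 (DESeq2), 2 (TMM, all), 1 (TMM, protein-coding) and 1 (quantile), with 23 higher and 7 lower by adjusted p alone.

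The replicate numbers gave no sign of pairing (r = 0.0112 across 11227 transcripts, which are not independent, between the library differences of the strains). With the replicate number as a block, 0 members were called and 5 were higher by adjusted p alone.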

Other observations

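Of the 7 genes outside the histones with AACCCT boxes side by side before the start codon, *tbp1*, which encodes the TATA-binding protein, was called higher in *rrp6*Δ (log2 fold change 1.38, limma adjusted p = 3.48e-09). The chaperone gene *ssa1* (0.67) and the GTPase gene *spi1* (0.38) were higher by adjusted p within 2-fold, *ssa2* (−0.25) and the elongation factor gene *eft201* (−0.26) were lower within 2-fold, and *tif51* (0.05) and *SPAC27E2.11c* (0.20) did not pass. These values are on the deposited scale, and that of *tbp1* was 0.72 with DESeq2 size factors and 1.31 with quantile normalization.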
